A study of Mus musculus with 4 samples.

Results

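The genes described here encode 10 proteins of the skeletal muscle fibre, read in RNA of lumbar spinal cord as a measure of muscle RNA in these libraries. They were found by symbol in the deposited table, where all 10 of the 10 had a row, among 18674 gene names in all. Tnni2, Tnnt3, Myh1, Myh2 and Myh4 are the fast fibre members, Tnni1, Tnnt1 and Myh7 the slow fibre members, and Acta1 and Ckm belong to both fibre types. Where a gene had several rows, for alternative transcripts, the mean of its rows was used. Tnni1 was selected on its RPKM values, since its spread between libraries had been noticed, and the list was chosen with these values known, so all levels below are descriptions.

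The 4 libraries, with 1 for each condition, came from wild type (WT) mice given vehicle, WT mice given spermidine (SD), G93A mice given vehicle and G93A mice given SD. G93A mice carry a transgene for mutant human SOD1 and develop motor neuron disease, here in the G93A H1 high-expresser strain on a B6/SJLF1 background, and WT mice lack the transgene. The transgene is not limited to motor neurons. SD, a natural polyamine, or PBS was given for 30 days at 4 injections per week, with 5 mg/kg named in the methods for SD, and the mice were 100 days of age at collection and only males entered treatment studies. The number of animals behind a library is not given in the sources used here. With 1 library per condition no difference has a replicate check, and the spread between animals is unknown. Each library had a sequencing lane of its own, so that lane, animal and condition cannot be told apart.

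In a skeletal muscle fibre, myosin heavy chains form the thick filament and pull on thin filaments of actin. The troponin complex on the thin filament switches this interaction on with calcium: troponin I inhibits it, troponin T anchors the complex to tropomyosin, and troponin C binds calcium. Fast and slow fibres use different genes for the same parts, and muscle creatine kinase regenerates ATP for both. Spinal cord holds no skeletal muscle fibres.

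The unit is RPKM, in which reads are divided by transcript length and library size, so that levels of different genes can be compared. The summed RPKM was 376852 to 393328 per library, and 892 to 1198 of 23750 rows per library were at 0. At 1 RPKM a transcript of 1 kb was estimated to hold 36.8 to 38.6 read pairs, the measure of depth used here. The value of 1 read pair, estimated from low values and transcript length, is used to say about how many read pairs lie behind a level. That estimate has no interval, and 33.9 to 34.4% of low values per library lay within 0.02 of a whole number of pairs or of pairs and a single read. A gene is called higher or lower where log2(RPKM + 0.1) differed by at least 1.5-fold between 2 libraries. That scale understates the differences of low genes, and no p-value is given. Markers of the labelled tissue were high in every library, with 661 to 1292 RPKM for Snap25, a synaptic protein of neurons, and 3575 to 4669 RPKM for Mbp, a myelin protein.

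Some promoter sequences are shown first, for the 3 members on which the reading of muscle RNA turns: Acta1 and Ckm, which are among the most abundant messages of muscle, and Tnni1, which stood apart here. Each is the 250 bases before a RefSeq transcript start on GRCm38.p6, written 5′ to 3′ on the strand of the gene. The start used for Tnni1 lies inside the span of the gene, which begins at 135783033. Acta1 is on the minus strand at chr8:123894776-123895025, Ckm on the plus strand at chr7:19410844-19411093, and Tnni1 on the plus strand at chr1:135799171-135799420. Capitals mark matches, on either strand, to the letters CAGCTG, to CATTCC, to TATAAA, to the CArG box or to the MEF2 motif, and no marked matches overlap in these sequences.
Acta1: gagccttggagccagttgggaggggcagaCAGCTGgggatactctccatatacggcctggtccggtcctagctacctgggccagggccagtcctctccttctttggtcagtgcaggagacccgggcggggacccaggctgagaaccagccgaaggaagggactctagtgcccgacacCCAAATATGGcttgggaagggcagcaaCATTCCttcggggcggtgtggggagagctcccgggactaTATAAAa
Ckm: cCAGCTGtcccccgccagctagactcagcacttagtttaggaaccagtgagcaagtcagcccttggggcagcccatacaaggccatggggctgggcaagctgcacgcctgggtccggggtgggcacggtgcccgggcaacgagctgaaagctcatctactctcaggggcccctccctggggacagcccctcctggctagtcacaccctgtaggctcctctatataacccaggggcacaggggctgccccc
Tnni1: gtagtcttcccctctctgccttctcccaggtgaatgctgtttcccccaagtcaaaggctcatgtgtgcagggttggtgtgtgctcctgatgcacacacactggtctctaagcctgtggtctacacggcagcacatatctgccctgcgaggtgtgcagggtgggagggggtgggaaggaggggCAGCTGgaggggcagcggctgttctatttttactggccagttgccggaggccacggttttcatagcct
In Acta1 the matches are CAGCTG from 221 to 216 bases before the start, a CArG box from 73 to 64, CATTCC from 46 to 41 and TATAAA from 7 to 2. The CArG box is the sequence that serum response factor binds. Ckm and Tnni1 each hold CAGCTG and no other of these letters in this window, from 249 to 244 and from 68 to 63 bases before the start. Promoters were matched by symbol for 8 of the 10 members, and Tnni2 and Tnnt3 had none. CAGCTG was found in 4 of the 8, against 12.8% of 27025 promoters, CATTCC in 4, against 12.6%, and TATAAA in 4, against 13.0%. The CArG box was found in 2 of the 8, Acta1 and Myh4, against 1.40% of promoters, and the MEF2 motif in 2, Myh1 and Myh4, against 3.01%, where it overlaps TATAAA in both.

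The members were at a low level in all 4 libraries, apart from Tnni1. Of the 10 members, 9 stayed under 1 RPKM in every library, and the median of the members' means was 0.153 RPKM, against 4.43 RPKM over all names. A mean of at least 0.5 RPKM was reached by 3 members, Tnni1, Myh7 and Tnni2. By mean level Tnni1 came first, with 5.10 RPKM, followed by Myh7 with 0.591, Tnni2 with 0.519, Tnnt1 with 0.250, Acta1 with 0.224, Ckm with 0.0812, Tnnt3 with 0.0807, Myh1 with 0.0297, Myh2 with 0.0181 and Myh4 with 0.00691 RPKM. The ranges over the 4 libraries overlapped between each of these neighbours in the order except Acta1 and Ckm. Under 20 read pairs were estimated in every library for 7 of the 10 members, so that a difference of a few pairs sets most of their folds.

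**Figure D1:**
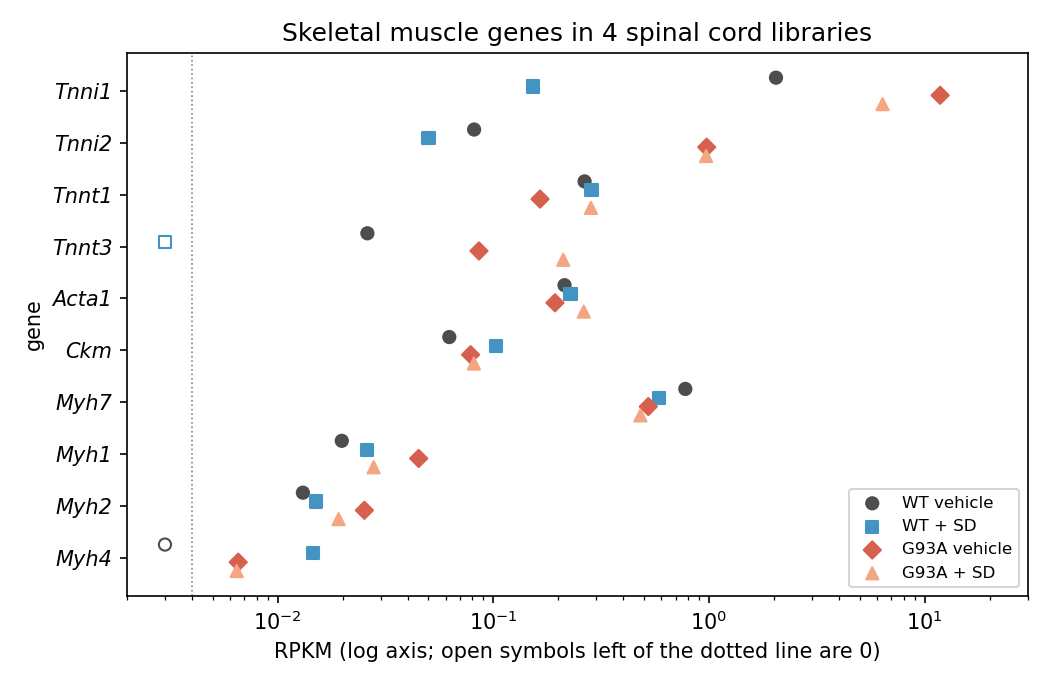
Level of each member in each library, in RPKM on a log axis, with 1 symbol per library and open symbols at 0. Tnni1 spans 0.153 to 11.8 RPKM and Tnni2 is near 1 RPKM in both G93A libraries, while the other members are under 1 RPKM in every library.

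The members that mark muscle most directly were low in all 4 libraries. Acta1 encodes skeletal alpha-actin, the actin of the thin filament, at chromosome 8, 123891758 to 123894775, of GRCm38. It had 0.214 (vehicle) and 0.228 RPKM (SD) in WT and 0.193 (vehicle) and 0.263 RPKM (SD) in G93A. The highest library was 1.36-fold above the lowest, and between 10.6 and 14.7 read pairs were estimated behind each value. Ckm, which encodes muscle creatine kinase (chromosome 7, 19411094 to 19421583), had 0.0625, 0.102, 0.0784 and 0.0813 RPKM in the same order. WT vehicle was lowest and WT + SD highest, the genotypes overlapped, and the values rest on 6.31 to 10.7 estimated read pairs. Acta1 shares 28 of its 1394 windows of 53 bases, the read length given in the methods, with transcripts of other genes, and Ckm shares none. Annotated genes on the opposite strand overlap both, so that without a stated strand their low levels are uncertain.

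The fast myosin heavy chains were at the edge of detection. Myh1, Myh2 and Myh4 encode the heavy chains of type IIx, IIa and IIb fibres and lie beside each other on chromosome 11, from 67200102 to 67224577, from 67171027 to 67197517 and from 67237812 to 67260447. Myh1 had 0.0198 (vehicle) and 0.0260 RPKM (SD) in WT and 0.0451 (vehicle) and 0.0278 RPKM (SD) in G93A, with 4.33 to 10.2 estimated read pairs. Myh2 had 0.0131, 0.0150, 0.0252 and 0.0192 RPKM in the same order, with 2.93 to 5.83 read pairs. For Myh4 the values were 0, 0.0146, 0.00656 and 0.00646 RPKM, and the highest of them, in WT + SD, rests on about 3.37 read pairs. Both G93A libraries were above both WT libraries for Myh1 and Myh2, though by 1.07-fold and 1.28-fold in the closest pair of libraries, while for Myh4 the genotypes overlapped. The share of all names whose genotypes separate by any margin was not counted, so this order is only a description.

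Reads of these 3 genes cannot all be told apart, and genes on the opposite strand overlap Myh1 and Myh2. Of the 5886 windows of 53 bases in the Myh1 transcript, 1524 (25.9%) are also found in other genes. Of these, 1123 are in Myh2, 581 in Myh4 and 538 in Myh8, and Myh2 shares 671 windows with Myh8. The share was 25.3% for Myh2 and 17.6% for Myh4, and the rule for placing reads of this kind is not given in the sources used here, which leaves the split between them uncertain. The longest coding stretch that Myh1, Myh2 and Myh4 hold in common is shown to make this visible. It has 140 bases, from exon 15 (chr11:67207552-67207590) into exon 16 (chr11:67208853-67208953) of Myh1 on the plus strand of GRCm38, it is identical in the 3 genes throughout, and nothing in it is capitalised.
Myh1, Myh2 and Myh4: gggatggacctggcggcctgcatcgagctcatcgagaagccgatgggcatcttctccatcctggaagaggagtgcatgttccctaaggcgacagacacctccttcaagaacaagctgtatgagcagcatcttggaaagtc

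Myh7, the slow and cardiac beta myosin heavy chain, had the lower level in both G93A libraries. The gene lies on chromosome 14 from 54970684 to 54994626 and had 0.777 (vehicle) and 0.584 RPKM (SD) in WT and 0.523 (vehicle) and 0.481 RPKM (SD) in G93A, with 114 to 175 estimated read pairs. Both G93A libraries were below both WT libraries, but no comparison reached 1.5-fold. How many of all names separate by so small a margin was not counted. Its transcript shares 1297 of 6083 windows of 53 bases (21.3%) with Myh6, the cardiac alpha heavy chain next to it, and antisense genes overlap it, so that without a stated strand its level is uncertain. Myh6 had 0.643, 0.778, 0.539 and 0.614 RPKM in the same order of libraries.

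With a pseudocount of 0.1 the calls among the members were on Tnni1, Tnni2 and Tnnt3. For G93A vehicle against WT vehicle 2 of the 10 members were called, where 19.7% of all 18674 names were. Tnni1 and Tnni2 were higher, against 14.4% of all names, and 0 members lower, against 5.31%. For G93A + SD against WT + SD 3 were called, against 24.9% of names: Tnni1, Tnni2 and Tnnt3 were higher, against 17.1%, and 0 lower, against 7.82%. For WT + SD against WT vehicle 1 was called, against 5.04% of names: Tnni1 was lower, against 2.8%, and 0 higher, against 2.25%. For G93A + SD against G93A vehicle 2 were called, against 5.52% of names: Tnni1 was lower, against 2.55%, and Tnnt3 higher, against 2.97%. With no pseudocount 7 members were called in G93A vehicle against WT vehicle, 6 higher and 1 lower, where 31.2% of all names were, and 5 between the WT libraries, where 16.2% were. Between genotypes the counts of 2 and 3 of 10 are near the share of all names, and Myh1, Myh2, Myh4, Tnnt3 and Ckm have means below the pseudocount. Between genotypes the members' median on the log2 scale was 0.14 under vehicle and 0.036 under SD, where that of all names was 0.046 and 0.050. For SD against vehicle it was 0.044 in WT and -0.0046 in G93A, where that of all names was 0.0044 and 0.0068.

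**Figure D2:**
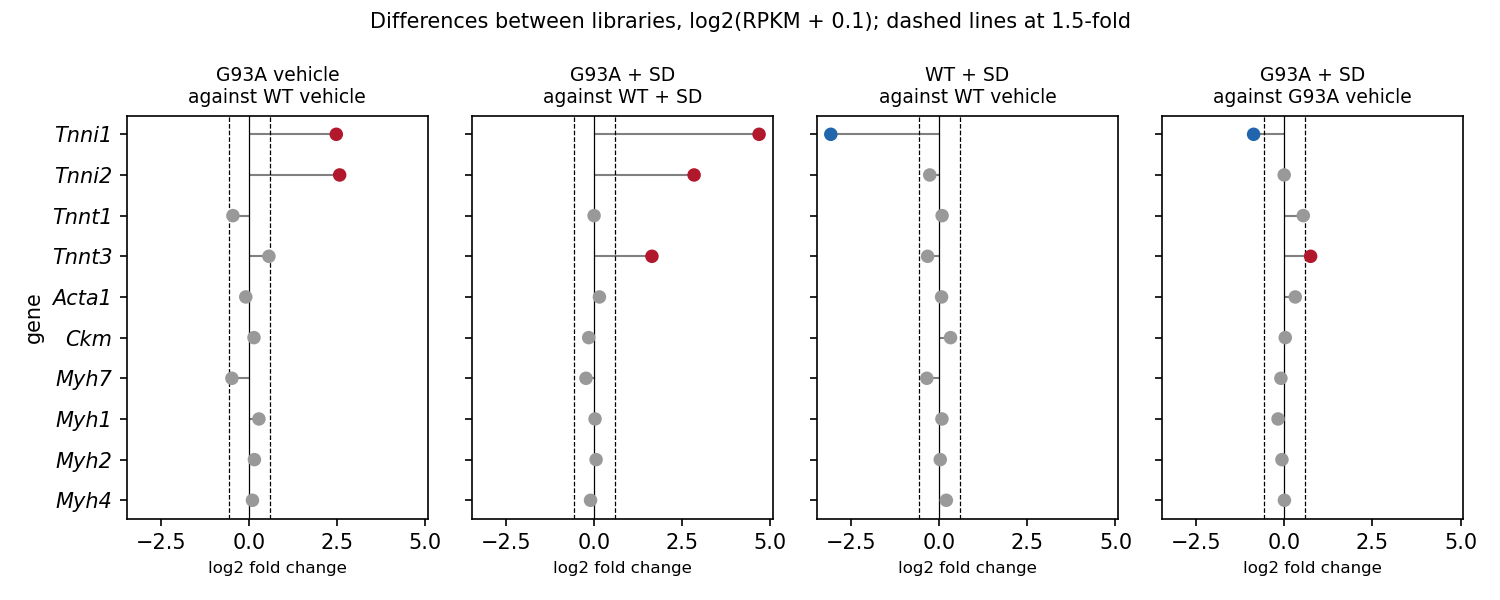
Log2 fold change of each member in 4 comparisons of single libraries, on the log2(RPKM + 0.1) scale, with dashed lines at 1.5-fold and colour for members past them. Only the troponin genes Tnni1, Tnni2 and Tnnt3 lie outside the lines, with Tnni1 on the left between libraries of 1 genotype and on the right between genotypes.

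Tnni1 encodes slow skeletal troponin I and lies on chromosome 1 from 135783033 to 135810989. It had 2.05 (vehicle) and 0.153 RPKM (SD) in WT and 11.8 (vehicle) and 6.39 RPKM (SD) in G93A. All 4 libraries differed, both G93A libraries were above both WT libraries, and in each genotype the SD library was the lower one. The 2 rows of Tnni1 gave the same order, and depending on the transcript the estimate was 57.7 to 81.3 read pairs for WT vehicle, 4.49 to 6.33 for WT + SD, 344 to 485 for G93A vehicle and 189 to 266 for G93A + SD. The RPKM of the rows did not differ in the ratio of the transcript lengths used, so that part of this range may come from the lengths. None of its 1053 windows of 53 bases in the longer transcript occurs in another gene, and no annotated gene overlaps it.

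The WT libraries differed more in Tnni1 than the vehicle libraries of the 2 genotypes did. Tnni1 was 13.4-fold higher in WT vehicle than in WT + SD, and under vehicle the G93A level was 5.77-fold that of WT. It was 41.7-fold higher in G93A + SD than in WT + SD, of which the low value in WT + SD is a part, and 1.85-fold higher in G93A vehicle than in G93A + SD. On the log2(RPKM + 0.1) scale these differences were -3.08 between the WT libraries, 2.47 and 4.68 between genotypes under vehicle and SD, and -0.88 between the G93A libraries.

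Tnni1 carried most of the members' summed level in 3 of the 4 libraries. It made up 58.4% (vehicle) and 10.5% (SD) of the members' summed RPKM in WT, and 84.9% (vehicle) and 73.2% (SD) in G93A. The sum of the 10 members was 3.50, 1.46, 13.9 and 8.73 RPKM in that order. Without Tnni1 it was 1.46, 1.31, 2.10 and 2.34 RPKM, and without Tnni1, Tnni2 and Tnnt3, a set left out after the values were seen, it was 1.35, 1.26, 1.04 and 1.16 RPKM, of which Myh7 was the largest part in every library.

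Marker lists of other cell types were read beside the difference of Tnni1 between the WT libraries. The summed RPKM in WT vehicle and WT + SD was 39.5 and 35.4 for 3 microglial genes, 5.28 and 6.24 for 5 smooth muscle genes, and 10.002 and 10.972 for 5 genes of meninges and fibroblasts. Tagln among the smooth muscle genes, with 2.48 and 4.01 RPKM, and Dcn among those of meninges, with 5.52 and 6.98 RPKM, set the direction of these sums. The median log2 difference between the WT libraries was -0.24 for the smooth muscle genes and -0.12 for those of meninges. Of the smooth muscle genes Tagln was called higher in WT + SD and Des lower, where 2.25% and 2.8% of all names were, and 0 of those of meninges were called. Between the genotypes under vehicle, all 3 microglial genes, 2 of the 5 smooth muscle genes and 2 of the 5 genes of meninges and fibroblasts were called higher in G93A, where 14.4% of all names were. Tagln, Dcn and Des were named after their values were seen. The part of these cells in the level of Tnni1 was not tested.

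In mice each troponin I gene has a troponin T gene as a neighbour, and the other gene of a pair is described here beside the member. Tnnt2, which encodes cardiac troponin T and is no member, lies 25.3 kb from Tnni1 on chromosome 1. It had 0.589 (vehicle) and 0.0229 RPKM (SD) in WT and 0.946 (vehicle) and 0.340 RPKM (SD) in G93A, with about 1 read pair (0.975 to 1.04) in WT + SD and 39.9 to 42.8 in G93A vehicle. The order of the libraries was that of Tnni1 except that G93A + SD was below WT vehicle. Tnnt2 was 25.7-fold higher in WT vehicle than in WT + SD, while G93A vehicle was 1.61-fold above WT vehicle and 2.78-fold above G93A + SD.

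Within 1 Mb of Tnni1, 27 other names had a row. Between the WT libraries 3 of them were called lower in WT + SD and 0 higher, where 2.8% and 2.25% of all names were. These were Tnnt2, Lad1, which encodes ladinin 1, with 0.271 and 0.143 RPKM, and Lmod1, a leiomodin of smooth muscle, with 0.402 and 0.169 RPKM. Lad1 lies between Tnni1 and Tnnt2, and had 0.542 RPKM in G93A vehicle and 0.277 in G93A + SD, so that in each genotype the SD library was lower for all 3 genes of this stretch. The genes on the other side, Phlda3 and Csrp1, differed by -0.21 and -0.00070 on the log2(RPKM + 0.1) scale between the WT libraries. Tnnt2, Lad1 and Lmod1 were singled out after their values were seen.

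**Figure D3:**
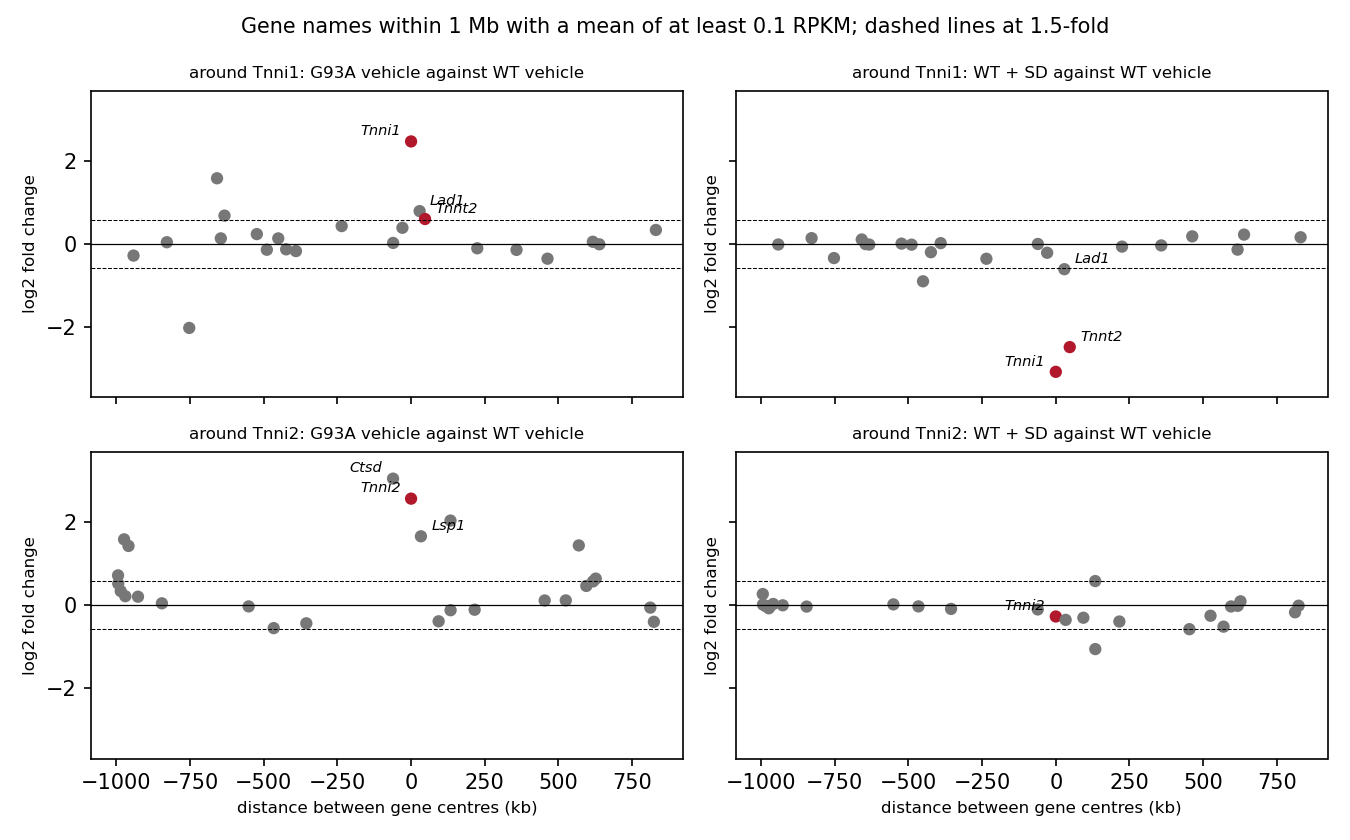
Log2 fold change on the log2(RPKM + 0.1) scale against distance between gene centres, in kb, for names with a mean of 0.1 RPKM or more within 1 Mb of Tnni1 (top) and Tnni2 (bottom), for G93A vehicle against WT vehicle (left) and WT + SD against WT vehicle (right), with troponin genes in red. Around Tnni1 the red points of Tnni1 and Tnnt2 lie far below the others between the WT libraries, and around Tnni2 the neighbours Ctsd and Lsp1 are higher with it in G93A vehicle.

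Tnni2 encodes fast skeletal troponin I and lies on chromosome 7 from 142441816 to 142444410. It had 0.0814 (vehicle) and 0.0501 RPKM (SD) in WT and 0.976 (vehicle) and 0.970 RPKM (SD) in G93A. The G93A libraries were nearly equal and both far above both WT libraries, 12.0-fold under vehicle and 19.4-fold under SD. The estimate for WT was about 2.19 read pairs under vehicle and 1.40 under SD, against 27.1 and 27.4 for G93A, so that the folds rest on few reads in WT. On the log2(RPKM + 0.1) scale the differences were 2.57 and 2.83. None of its 680 windows of 53 bases occurs in another gene. Of the 10 members, Tnni1 and Tnni2 had both G93A libraries at least 1.5-fold above both WT libraries, as 10.4% of all names did, and 0 members had them as far below, as 2.28% did.

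Tnnt3, the fast skeletal troponin T, is the partner of Tnni2 on chromosome 7, from 142498771 to 142516213, with a gap of 54.4 kb. It had 0.0261 (vehicle) and 0 RPKM (SD) in WT and 0.0858 (vehicle) and 0.211 RPKM (SD) in G93A. Both G93A libraries were above both WT libraries, but G93A vehicle by 0.56 on the log2 scale, which misses the threshold. The share of all names that separate by a margin below the threshold was not counted. Its 8 rows gave nearly the same estimates, of 0.960 to 1, 0, 3.26 to 3.40 and 8.13 to 8.51 read pairs in the same order of libraries. A lincRNA, Prr33, overlaps it on the opposite strand.

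Some genes between and beside this pair were higher in G93A as well, and those named here were singled out after their values were seen. Lsp1, a protein of leukocytes, lies between Tnni2 and Tnnt3, and had 1.42 (vehicle) and 1.09 RPKM (SD) in WT and 4.69 (vehicle) and 4.32 RPKM (SD) in G93A. Ctsd, which encodes the lysosomal protease cathepsin D, is on the other side of Tnni2 and had 186, 174, 1545 and 1516 RPKM in the same order. Within 1 Mb of Tnni2, 9 of 37 other names were called higher in G93A vehicle against WT vehicle and 0 lower, where 14.4% and 5.31% of all names were. For G93A + SD against WT + SD 13 were higher and 1 lower, where 17.1% and 7.82% of all names were. The microglial list, Cx3cr1, Csf1r and Aif1, summed to 39.5, 35.4, 132 and 139 RPKM in the same order, and all 3 of its genes were called higher in G93A in both comparisons. All 3 astrocyte genes were called higher in both as well, with a sum of 618 and 562 RPKM in WT vehicle and WT + SD and of 2625 and 3145 RPKM in G93A vehicle and G93A + SD. Their part in the level of Tnni2 was not tested, and in bulk tissue more cells of a type and more RNA per cell cannot be told apart.

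Tnnt1, the slow skeletal troponin T, did not follow Tnni1, the slow troponin I. It lies on chromosome 7 from 4504569 to 4515975, and had 0.265 (vehicle) and 0.285 RPKM (SD) in WT and 0.165 (vehicle) and 0.283 RPKM (SD) in G93A, with 6.43 to 11.2 estimated read pairs. G93A vehicle was the lowest library, the other 3 lay within 0.265 to 0.285 RPKM, and no comparison reached 1.5-fold on the log2(RPKM + 0.1) scale. Without a pseudocount G93A vehicle was 1.61-fold below WT vehicle and 1.72-fold below G93A + SD. Its neighbour Tnni3, cardiac troponin I, 2.3 kb away and no member, had 0.203, 0.457, 0.641 and 0.538 RPKM in the same order, with WT vehicle lowest. Tnni3 was called higher in G93A vehicle against WT vehicle, by 1.29 on the log2(RPKM + 0.1) scale, and in WT + SD against WT vehicle, by 0.88, with 6.83 estimated read pairs in WT vehicle.

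**Figure D4:**
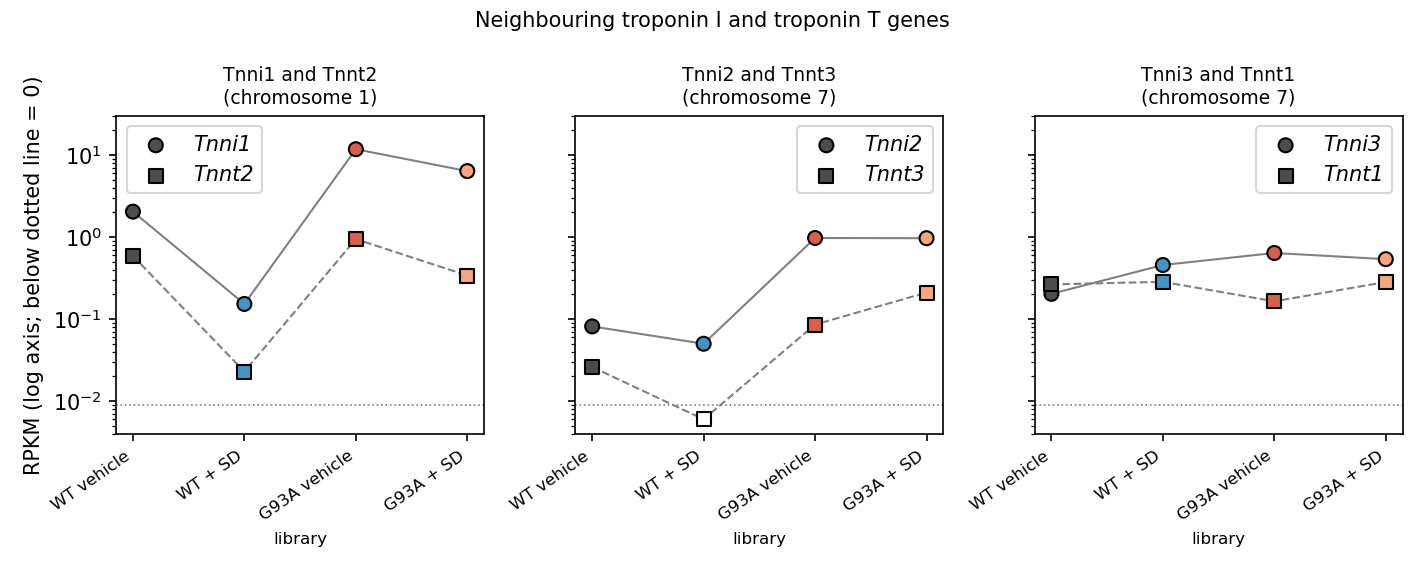
RPKM on a log axis of the 3 neighbouring pairs of troponin I (circles) and troponin T (squares) genes in the 4 libraries. The lines join the libraries of 1 gene and carry no order. Tnni1 and Tnnt2 are both lowest in WT + SD and highest in G93A vehicle, Tnni2 and Tnnt3 are both higher in the G93A libraries, and Tnnt1 stays between 0.165 and 0.285 RPKM.

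The genes whose pattern was most like that of Tnni1 were found by the mean absolute difference of centred log2(RPKM + 0.1) over the 4 libraries, among the 14041 names averaging 0.5 RPKM or more. The 5 closest were Fcer1g, Ifi204, H2-Oa, Ccl12 and Glycam1, at 0.590, 0.593, 0.621, 0.665 and 0.730 on that scale. Fcer1g encodes the common gamma chain of Fc receptors, Ifi204 an interferon-inducible protein, H2-Oa a chain of an MHC class II accessory molecule, Ccl12 a chemokine and Glycam1 a mucin-like glycoprotein. Fcer1g had 3.89 (vehicle) and 2.07 RPKM (SD) in WT and 52.0 (vehicle) and 29.2 RPKM (SD) in G93A. Ifi204 had 0.113, 0.0114, 2.44 and 1.09 RPKM in the same order. Their likeness to Tnni1 is what the search chose them for.

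The wider set of muscle genes was read in the same way, with 54 genes of the sarcomere, of calcium handling and excitation, of muscle energy metabolism and of muscle transcription, of which 50 had a row. Of these, 36 stayed under 0.5 RPKM in every library and 22 under 0.1 RPKM, and the median of their means was 0.0727 RPKM. In G93A vehicle against WT vehicle 3 of the 50 were called higher and 3 lower, where 14.4% and 5.31% of all names were. In G93A + SD against WT + SD 8 were higher and 3 lower, against 17.1% and 7.82%. In WT + SD against WT vehicle 2 were higher and 4 lower, against 2.25% and 2.8%. In G93A + SD against G93A vehicle 2 were higher and 3 lower, against 2.97% and 2.55%. Of the 13 that average 0.5 RPKM or more, 2, 4, 1 and 0 were called in the 4 comparisons in that order, where 18.9, 25.1, 2.68 and 2.90% of all names at that level were. Between genotypes the median of the 50 on the log2 scale was 0.0041 under vehicle and -0.046 under SD. The 4 listed muscle transcription factors, Myod1, Myog, Myf5 and Pax7, summed to 0.0587 to 0.124 RPKM per library, and none was called. At their levels the pseudocount of 0.1 kept Myod1, Myf5 and Pax7 from reaching 1.5-fold in any comparison. For these genes that outcome was fixed by the scale.

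The 5 of these genes with the highest means were Pygm, Mybph, Ldb3, Jph1 and Eno3. Pygm, the muscle form of glycogen phosphorylase, had 33.2 (vehicle) and 34.03 RPKM (SD) in WT and 29.2 (vehicle) and 26.6 RPKM (SD) in G93A. Mybph, a relative of myosin binding protein C, had 14.3, 15.1, 14.4 and 13.4 RPKM in the same order. Ldb3, a protein of the Z disc, had 2.52, 2.53, 2.57 and 2.02 RPKM, and Eno3, the muscle enolase, 1.91, 1.92, 2.55 and 2.82 RPKM. Jph1, which joins the surface membrane to the calcium store, had 2.89, 2.72, 2.17 and 1.54 RPKM and was called lower in G93A + SD against WT + SD. Apart from Jph1 these genes passed 1.5-fold in no comparison.

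Among muscle genes averaging 0.5 RPKM or more, Cox6a2, Casq1, Tnnc1 and Actn2 also passed the threshold. Cox6a2, the heart and muscle form of a cytochrome oxidase subunit, had 0.238 (vehicle) and 0.130 RPKM (SD) in WT and 1.62 (vehicle) and 2.11 RPKM (SD) in G93A, so that both G93A libraries were above both WT libraries, and its mean passed 0.5 RPKM through the G93A libraries. Cox8b, another muscle subunit of the same enzyme, singled out after its values were seen, had 0.735, 0.756, 0.326 and 0.143 RPKM in the same order and was called lower in G93A in both comparisons. Casq1, the calcium store protein of fast fibres, had 0.971, 0.468, 1.21 and 0.841 RPKM in the same order and was lowest in WT + SD. Tnnc1, the slow and cardiac troponin C, had 0.920, 0.821, 1.34 and 1.30 RPKM and was called higher in G93A + SD against WT + SD. Actn2, an actinin that crosslinks thin filaments, had 1.36, 1.02, 0.864 and 0.968 RPKM and was called lower in G93A vehicle against WT vehicle.

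A few other messages of muscle among the 50 were picked after their values were seen, the first 3 of them for their low levels. Myl1, the fast light chain, had 0 (vehicle) and 0.0291 RPKM (SD) in WT and 0.0293 (vehicle) and 0 RPKM (SD) in G93A. Atp2a1, the calcium pump of fast fibres, had 0.0189 to 0.0503 RPKM, Ttn, which encodes titin, 0.0133 to 0.0286 RPKM. Mb, which encodes myoglobin, had 0.329 to 0.374 RPKM, and Mylpf, a fast regulatory light chain, 0.453 to 0.708 RPKM.

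**Figure D5:**
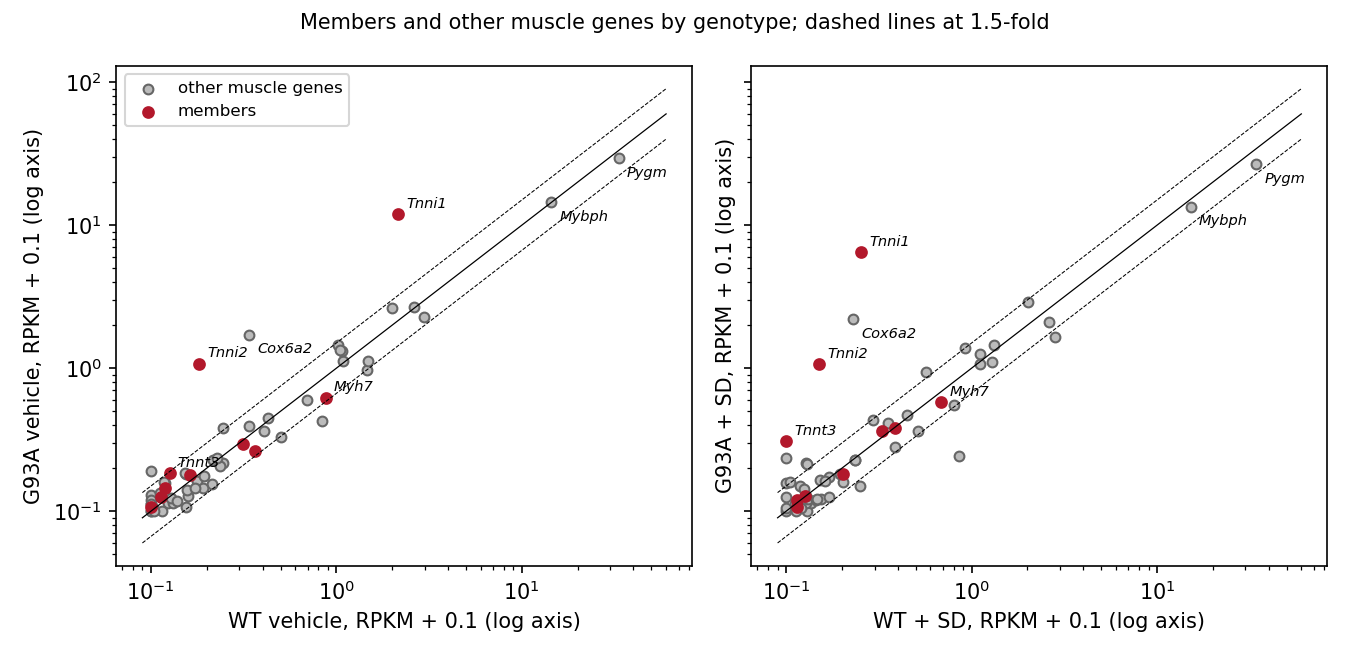
RPKM + 0.1 on log axes in G93A against WT under vehicle (left) and under SD (right), for the 10 members in red and 50 other muscle genes in grey, with the line of equality and dashed lines at 1.5-fold. Most points lie between the dashed lines, while Tnni1, Tnni2 and Cox6a2 lie above them in both panels and Tnnt3 only under SD.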

How the data were processed

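PolyA RNA of lumbar spinal cord was sequenced as 53 bp reads from 4 libraries, 1 per condition, with conditions taken from the labels. The authors' methods name STAR, GRCm38 and HTSeq on an Ensembl gene set, whereas the deposited table lists RefSeq transcripts in 23750 rows. Its values were taken as RPKM made by the authors, a unit inferred from the values, and the step that led to them is not given in the sources used here. Ratio columns of the authors were not used.

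Rows of a name were averaged over 18674 names. A name was called at 1.5-fold on log2(RPKM + 0.1). The design was written without a test, since each condition had 1 library. The members and lists were chosen with earlier results of these data known. Named genes are the members, the 5 other muscle genes with the highest means, those called whose mean reached 0.5 RPKM, markers listed first for other cell types, and the 5 names most like Tnni1. Other genes, neighbours and relatives of members included, were picked after their values were seen.

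The value of 1 read pair was the commonest low product of RPKM and GENCODE M21 transcript length, with lengths for 23026 of the rows. Transcript windows were compared on the same strand with all GENCODE M21 transcripts. Gene positions and promoters are from RefSeq GRCm38.p6. Alternatives changed the pseudocount, threshold, scaling, rows or filter. Tables were made in Python 3.11.15 with pandas 2.3.3 and numpy 2.4.6, and plots with matplotlib 3.10.9. The calling step was tested on simulated data for G93A vehicle against WT vehicle, with planted changes larger than the calling threshold. All 200 changed names were recovered, and 0 of 9500 unchanged names with 200 reads were called. Changes near the threshold, and names with as few reads as most members had, were not tested. Some of the marker lists are not reported here.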

Additional observations from a re-analysis of the deposited data

How the results depend on the processing

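No replicate was left out, since each condition had 1 library. No paired analysis was possible because the conditions share no replicate numbers beyond the single library of each. Depth limits the members too, since 7 of 10 had under 20 estimated read pairs in every library. Scaling by median ratios and taking the highest row of each name left every count of members and other muscle genes as it was, though under the scaling the other muscle genes called in G93A + SD against WT + SD were 7 higher and 4 lower in place of 8 and 3.

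The members called, 2 in G93A vehicle against WT vehicle, became 7 with no pseudocount, and the 1 called in WT + SD against WT vehicle became 5. The 2 called in G93A + SD against G93A vehicle became 4 with no pseudocount, 1 with a pseudocount of 1, 0 at 2-fold and 1 among members averaging 0.5 RPKM or more. The members' median log2 fold change in G93A vehicle against WT vehicle, 0.14, was 1.07 with no pseudocount, 0.019 with a pseudocount of 1 and 2.47 over the 3 members with a mean of at least 0.5. In G93A + SD against WT + SD it was 0.15 with no pseudocount and 2.83 over those 3, and in WT + SD against WT vehicle it was -0.36 over them. Tnni2 has that mean through its G93A libraries alone and Tnni1 was chosen for its spread, so that a high median over those 3 between genotypes was fixed by the filter and supports nothing.

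Other muscle genes called, with no pseudocount, with a pseudocount of 1, at 2-fold and with a mean of at least 0.5 in that order, numbered 27, 1, 1 and 2 in G93A vehicle against WT vehicle in place of 6. They numbered 30, 2, 3 and 4 in G93A + SD against WT + SD in place of 11, 21, 0, 0 and 1 in WT + SD against WT vehicle in place of 6, and 17, 0, 0 and 0 in G93A + SD against G93A vehicle in place of 5.

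The share of all names called was 16.2, 0.712, 1.46 and 2.68% in WT + SD against WT vehicle in the same order of settings, and 16.3, 1.05, 1.53 and 2.90% in G93A + SD against G93A vehicle. It was 31.2% with no pseudocount, 10.2% with a pseudocount of 1 and 8.45% at 2-fold in G93A vehicle against WT vehicle, and 36.6% with no pseudocount, 14.6% with a pseudocount of 1, 11.1% at 2-fold and 25.1% with a mean of at least 0.5 in G93A + SD against WT + SD. A pseudocount of 1 and a filter on the mean remove differences of names near 0 by their construction.

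Leaving out Tnni1, chosen after seeing the data, brought the summed level to 1.46 (vehicle) and 1.31 RPKM (SD) in WT and to 2.10 (vehicle) and 2.34 RPKM (SD) in G93A.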
